A study of Mus musculus with 20 samples.

Results

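Glomeruli and post-capillary venules of the healthy mouse renal cortex were compared directly, with 4 laser-microdissected samples in each group. These are 8 of the 20 samples of the series and were chosen by their labelled microvascular compartment alone. All 8 samples came from the kidneys of untreated male C57BL6/OlaHsd wild-type (WT) mice. Both compartments were cut by shape from cryosections stained with hematoxylin, over equal areas, so a sample holds every cell type inside the outline and not the endothelium alone. Libraries of both groups were made with the same low-input form of a 3′ mRNA kit, in which a read near the 3′ end of a transcript counts that transcript. Libraries are called by compartment and column number. Wherever 4 values are listed, they are those of libraries 93, 96, 98 and 100, in that order. The labels call the samples biological replicates but name no mouse behind them. In the study, both compartments of a mouse were cut from the same stained slide, so glomerular and venule samples may share mice. The main test treated the 8 samples as independent. Each p-value thus refers to the scatter among these 8 samples. In such mixed samples, fewer cells of a type and less RNA per cell cannot be told apart.

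The glomerulus is a tuft of fenestrated capillaries held by mesangial cells and wrapped by podocytes, whose interdigitating foot processes are joined by slit diaphragms and complete the filtration barrier. Renin-producing cells lie at its vascular pole, next to the macula densa of the distal tubule. Post-capillary venules drain the peritubular capillaries, have thin walls with little muscle, run in connective tissue between the tubules, and are in many tissues the site where leukocytes leave the blood.

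Of 34255 genes in the table, 10685 passed the filter on low counts and were tested with edgeR's quasi-likelihood test. A gene was called at a Benjamini-Hochberg adjusted p-value (FDR) under 0.05 and a difference of more than 1 on the log2 scale, with fold changes given as glomeruli minus venules. Levels are in CPM, the count scaled by the TMM-adjusted library total. Transcription of 275 genes was higher in glomeruli (2.57% of tested genes) and of 332 genes higher in venules (3.11%) (5.68% in either direction). The shares of 2.57% and 3.11% are the background for all counts of list members below. Over all tested genes, the log2 fold changes had a median of -0.0062. With all 16 microdissected libraries in the fit, which share 1 estimate of the spread, 60 and 89 genes were called, and with 20 libraries 125 and 173. Of the 119 called genes described here, 67 were no longer called with 16 libraries and 41 with 20. Of the 275 and 332 genes, 124 and 192 were called again without each of the 8 libraries in turn. CPM of the groups did not overlap for 785 genes with the glomerular libraries above (7.35% of tested genes) and for 753 with the venule libraries above (7.05%). Library totals ran from 7299352 to 9792824 counts in glomeruli and from 4639090 (venule 98) to 9038724 in venules. Spearman correlations of log2 CPM averaged 0.687 between glomerular libraries, 0.609 between venule libraries and 0.534 between the groups. Genes with at least 1 count numbered 13495.5 ± 520 in glomeruli and 12816.2 ± 734 in venules (SD, n = 4; two-sided exact permutation p 0.20, where 4 against 4 cannot go below 0.0286).

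**Figure D1:**
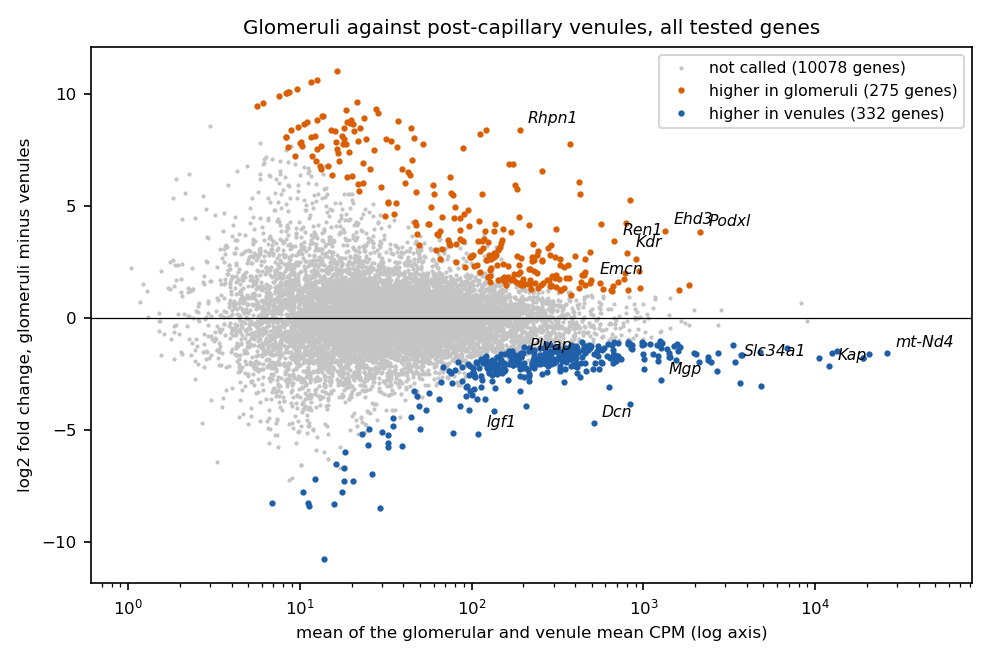
Log2 fold change (glomeruli minus venules) of the 10685 tested genes against the mean of the 2 group means in CPM on a log axis. The 275 genes higher in glomeruli are orange and the 332 higher in venules blue, the largest fold changes of either side lie at low levels, and the most abundant called genes, among them mt-Nd4 and Kap, are higher in venules.

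The labels were checked against the share of each library's counts on lists of cell type markers. Podocyte slit diaphragm and foot process genes took 1.51 to 1.84% of glomerular counts and 0.117 to 0.142% of venule counts. Glomerular endothelial genes took 0.812 to 0.963% of glomerular counts and 0.158 to 0.224% of venule counts. Neither pair of ranges overlapped, with the glomerular libraries above. Genes of endothelium in general took 0.298 to 0.344% of glomerular counts and 0.0768 to 0.137% of venule counts. Smooth muscle genes took 0.358 to 0.517% of glomerular counts and 0.174 to 0.258% of venule counts. Pecam1, which holds endothelial cells together, had levels of 494, 283, 426 and 374 CPM in the glomerular and 299, 189.8, 80.3 and 93.6 CPM in the venule libraries and was not called (log2 fold change 1.25, FDR 0.0845). The junction protein gene Cdh5 stood at 95.5 ± 37.5 CPM in glomeruli against 22.6 ± 13.8 in venules and was not called either (log2 fold change 2.08, FDR 0.126). The venous endothelial list took 0.208 to 0.237% of glomerular counts and 0.132 to 0.204% of venule counts, also without overlap and with the glomerular libraries above. These are shares of raw totals, before TMM scaling, whose factors were 1.071 to 1.234 in glomerular and 0.7921 to 0.9892 in venule libraries. CPM thus puts glomeruli lower and venules higher than such shares do. Of the list's 14 genes, 8 passed the filter, and their median log2 fold change was -0.44. Ackr1, a chemokine receptor that marks venules in many organs, had 0 counts in all 8 libraries. Nr2f2, the transcription factor of venous identity, stood at 315 ± 139 CPM in glomeruli against 257 ± 53.9 in venules (log2 fold change 0.29, FDR 0.839). Plvap, a diaphragm protein of venules and capillaries, was the 1 venous gene higher in venules, and Emcn the 1 higher in glomeruli. Egfl7, Cldn5 and Ets1 were the 3 of 20 tested genes of endothelium in general called, all higher in glomeruli.

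**Figure D2:**
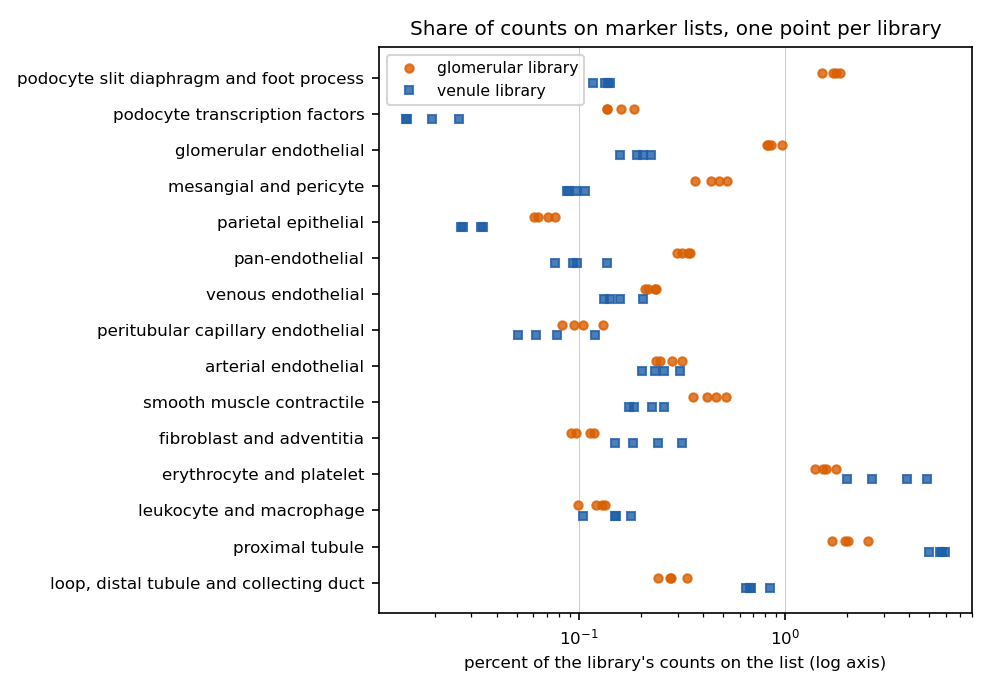
Percent of each library's counts on 15 cell type lists (log axis), with circles for the 4 glomerular and squares for the 4 venule libraries. The groups stand apart for podocyte, glomerular endothelial and tubule genes, and overlap for arterial, peritubular capillary and leukocyte genes.

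Of the gene lists examined, that of podocyte genes held the most genes higher in glomeruli. Of 26 listed genes of the slit diaphragm and foot process, 23 were tested, and 17 were higher in glomeruli and none in venules (background 2.57% and 3.11%), with a median log2 fold change of 3.88. Podxl, the sialomucin that keeps foot processes apart, stood at 5309, 4136, 3533 and 3062 CPM in the glomerular and 279.6, 185, 219.8 and 439 CPM in the venule libraries (log2 fold change 3.84 ± 0.298, FDR 6.6e-08). Every glomerular library exceeded every venule library. Synpo, the actin-binding protein synaptopodin, stood at 1506 ± 243 CPM in glomeruli against 79.8 ± 28.4 in venules (SD, n = 4; FDR 7e-08). Rhpn1, which encodes rhophilin, stood at 427, 432, 204 and 453 CPM in the glomerular and 1.44, 0.968, 0.221 and 1.67 CPM in the venule libraries (log2 fold change 8.40 ± 0.627, FDR 4.42e-08), so its venule level was near 0. Nphs1, which encodes nephrin, stood at 158, 126, 177 and 846 CPM in the glomerular and 8.88, 1.11, 0.221 and 0.759 CPM in the venule libraries (log2 fold change 6.85 ± 0.972, FDR 0.000141), with 1 glomerular library far above the rest. Its log2 fold change was 5.78 without glomerular 100 and 8.73 without venule 93. Plce1, a phospholipase mutated in nephrotic syndrome, and Clic3, an intracellular chloride channel protein, differed by 8.22 and 6.57 on the log2 scale (FDR 2.01e-07 and 2.64e-07).

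The other members called were Ptpro, Magi2, Ddn, Thsd7a, Dag1, Myo1e, Npnt, Nes, Cdkn1c and Pard3b. Thsd7a, an autoantigen of membranous nephropathy, stood at 861 ± 479.5 CPM in glomeruli against 113 ± 47.1 in venules (log2 fold change 2.93, FDR 0.000108). Cdkn1c, the cell cycle inhibitor p57 of mature podocytes, stood at 831 ± 159 CPM in glomeruli against 18 ± 25.7 in venules (log2 fold change 5.52, FDR 8.85e-05, 7.30 without venule 100). Pard3b, a polarity protein, stood at 210.0, 196, 259.5 and 821 CPM in the glomerular and 92.2, 80.9, 91.2 and 86.5 CPM in the venule libraries (log2 fold change 2.08, FDR 0.00734), and without glomerular 100 the log2 fold change was 1.34 (FDR 0.102). Among 9 podocyte transcription factors tested, 4 were higher in glomeruli and none in venules. Wt1, the master regulator of podocyte identity, stood at 377, 501, 310.0 and 217 CPM in the glomerular and 5.22, 1.24, 16.4 and 0.455 CPM in the venule libraries (log2 fold change 5.94 ± 0.822, FDR 0.000114, 7.18 without venule 98). Foxc1 stood at 241 ± 9.35 CPM in glomeruli against 34.7 ± 28.6 in venules (log2 fold change 2.80, FDR 0.00395, 3.51 without venule 96). Lmx1b, the factor mutated in nail-patella syndrome, stood at 161 ± 71.5 CPM in glomeruli against 10.6 ± 17.1 in venules (log2 fold change 3.93, FDR 0.029), a call that ended without glomerular 93, glomerular 96, venule 93 or venule 100 (FDR up to 0.1). Without venule 98 the log2 fold change was 6.19. Venule 98 held 36.1 CPM of Lmx1b and 16.4 CPM of Wt1, above the other 3 venule libraries. Counting with no stated strand cannot tell Wt1 from its antisense partner Wt1os, which stood at 73.8, 115, 34 and 73.8 CPM in the glomerular libraries and at or below 0.392 CPM in venules (FDR 0.000692, log2 fold change 8.78, 9.92 without venule 93). Parietal epithelial genes of Bowman's capsule did not follow this pattern, with 1 of 10 called, the adhesion molecule Ncam1 (log2 fold change 2.36, FDR 0.0172), and a median of -0.83, although the list's share of counts was larger in all glomerular libraries (0.0604 to 0.0764% of glomerular counts and 0.0267 to 0.034% of venule counts). The Ncam1 call ended without glomerular 96 (FDR 0.0604).

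Glomerular endothelial genes were higher in glomeruli in 6 of 14 tested members (Ehd3, Kdr, Plat, Mapt, Tbx3 and Itga3) and in venules in none (background 2.57% and 3.11%). The median log2 fold change of the list was 3.04. Ehd3, an EH-domain protein of membrane recycling known from fenestrated glomerular endothelium, lies at chr17:73804134-73832094 of GRCm38 and stood at 3193, 2114, 2182 and 2540 CPM in the glomerular and 119.6, 182, 151 and 219 CPM in the venule libraries (log2 fold change 3.90 ± 0.28, FDR 3.77e-08). The lowest glomerular library held 2114 CPM and the highest venule library 219 CPM. Kdr, the VEGF receptor VEGFR2, stood at 1510, 970.3, 1580 and 1618 CPM in the glomerular and 44, 164, 386 and 169 CPM in the venule libraries (log2 fold change 2.90 ± 0.446, FDR 0.000344). Plat, tissue plasminogen activator, stood at 178, 491, 162 and 70.7 CPM in the glomerular and 5.22, 9.95, 2.44 and 1.97 CPM in the venule libraries (log2 fold change 5.51 ± 0.75, FDR 9.77e-05, 4.79 without glomerular 96 and 6.12 without venule 96). Tbx3, a T-box transcription factor, stood at 178, 151, 164 and 199.5 CPM in the glomerular and 1.18, 0.276, 26.1 and 0.455 CPM in the venule libraries (log2 fold change 4.65, FDR 0.0116, 7.99 without venule 98). Mapt, the microtubule protein tau, stood at 1251 ± 229.5 CPM in glomeruli against 312 ± 62.9 in venules (log2 fold change 2.00, FDR 9.22e-05). Flt1, the other main VEGF receptor of endothelium, stood at 430.5 ± 92.8 CPM in glomeruli against 282 ± 84.5 in venules and was not called (log2 fold change 0.61, FDR 0.416).

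In the VEGF and angiopoietin system, 3 of 13 tested genes were higher in glomeruli and none in venules (background 2.57% and 3.11%). The 3 form a ligand, a receptor and a co-receptor. Vegfa, the ligand that podocytes supply to the capillaries, stood at 151, 316, 328 and 242 CPM in the glomerular and 7.31, 31.4, 55.6 and 25.5 CPM in the venule libraries (log2 fold change 3.12 ± 0.566, FDR 0.00155). Nrp1, the co-receptor neuropilin-1, stood at 1543, 1632, 1468 and 1592 CPM in the glomerular and 150.4, 366, 168 and 313 CPM in the venule libraries (log2 fold change 2.64 ± 0.308, FDR 1.89e-05), and Kdr is given above. The angiopoietin receptor Tek stood at 61.1 ± 37.6 CPM in glomeruli against 31.3 ± 10.7 in venules (FDR 0.706). Placental growth factor, Pgf, did not pass the filter, with 0, 0, 332 and 849 counts in the glomerular libraries and 1, 0, 1 and 0 in the venule libraries, so the gene was read in 2 of 4 glomerular libraries.

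Mesangial and pericyte genes were higher in glomeruli in 6 of 16 tested members and in venules in none (background 2.57% and 3.11%). The median log2 fold change of the list was 1.66. Serpine2, a protease inhibitor known from mesangial cells, stood at 311, 426, 388 and 524 CPM in the glomerular and 48.6, 30.4, 56.7 and 29.1 CPM in the venule libraries (log2 fold change 3.32 ± 0.404, FDR 2.95e-05). Igfbp5, an IGF-binding protein, stood at 390.5, 653, 677 and 725 CPM in the glomerular and 89.4, 98.7, 127 and 154 CPM in the venule libraries (log2 fold change 2.38 ± 0.339, FDR 0.000144). Sfrp2, a secreted modulator of Wnt signalling, differed by 3.89 on the log2 scale (FDR 0.000241), the growth factor Ptn by 4.17 (FDR 0.006) and the actin-binding Cald1 by 1.75 (FDR 0.00149). The proteoglycan gene Cspg4 was also called (log2 fold change 4.17, FDR 0.0129), but not without glomerular 96 or glomerular 100 (FDR up to 0.163), with a log2 fold change of 3.47 without glomerular 100. Pdgfrb, the receptor of all mural cells, stood at 217 ± 72.9 CPM in glomeruli against 112 ± 45.8 in venules and was not called (FDR 0.302).

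Basement membrane and adhesion genes gave a smaller group. Of 18 tested collagen IV, laminin and related genes, 3 were higher in glomeruli and none in venules (background 2.57% and 3.11%). Lamb2, the laminin β2 chain of the mature glomerular basement membrane, stood at 454, 492, 431 and 596 CPM in the glomerular and 176, 58.1, 205 and 77.7 CPM in the venule libraries (log2 fold change 1.93 ± 0.401, FDR 0.00482). Col4a4, a chain of the glomerular collagen IV network, was called at 447 ± 63.6 CPM in glomeruli against 169 ± 72 in venules (log2 fold change 1.40, FDR 0.0239), but not without any 1 library other than glomerular 93, venule 93 and venule 100 (FDR up to 0.0865). Its partner chain Col4a3 stood at 145 ± 125 CPM in glomeruli against 60.6 ± 13.3 in venules (FDR 0.31). Col4a1 and Col4a2 of the general network had log2 fold changes of 0.66 and 0.75 (FDR 0.25 and 0.441). Col18a1, the source of endostatin, was the third call (log2 fold change 1.59, FDR 0.0129). Of 15 integrin subunits, Itga3 and Itgb1, which together form the podocyte laminin receptor, were the 2 called. Itga3 was also counted among the glomerular endothelial genes above, and these mixed samples cannot tell which cells its RNA came from. Itga3 stood at 216, 76.1, 175 and 142 CPM in the glomerular and 7.31, 2.21, 3.32 and 0.759 CPM in the venule libraries (log2 fold change 5.47 ± 0.815, FDR 0.000237, 6.15 without venule 93). Itgb1 stood at 835 ± 124 CPM in glomeruli against 282 ± 50.3 in venules (log2 fold change 1.56, FDR 0.00139). The matrix protein Sparc, one of the most abundant genes higher in glomeruli, stood at 2708 ± 176 CPM in glomeruli against 984 ± 346 in venules (log2 fold change 1.46, FDR 0.000994).

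Vasoactive genes were higher in glomeruli in 6 of 24 tested members and in venules in none (background 2.57% and 3.11%). Ren1, which encodes renin, stood at 808, 1462, 781 and 1871 CPM in the glomerular and 175, 3.73, 48.3 and 235 CPM in the venule libraries (log2 fold change 3.41 ± 0.708, FDR 0.00487, 4.03 without venule 100). The venule libraries ranged from 3.73 to 235 CPM. Npr3, the clearance receptor of natriuretic peptides, stood at 183, 332, 219.6 and 715 CPM in the glomerular and 0.392, 0.276, 25.9 and 0.759 CPM in the venule libraries (log2 fold change 5.76 ± 1.10, FDR 0.00249, 9.50 without venule 98). Npr1, the signalling receptor of atrial natriuretic peptide, stood at 255 ± 50.2 CPM in glomeruli against 47.8 ± 27.7 in venules (log2 fold change 2.41, FDR 0.0104). Adora1, the adenosine A1 receptor of tubuloglomerular feedback, stood at 73.3 ± 48 CPM in glomeruli against 0.355 ± 0.087 in venules (log2 fold change 7.64, FDR 0.000904). Enpep, the aminopeptidase that degrades angiotensin II, was called at 116 ± 40 CPM in glomeruli against 8.74 ± 5.55 in venules (log2 fold change 3.73, FDR 0.00785), but not without glomerular 96 (FDR 0.0508). Gucy1b1, a subunit of the nitric oxide receptor, was called (FDR 0.0343), but not without any 1 of the 8 libraries (FDR up to 0.144). Nos3, the endothelial nitric oxide synthase, stood at 28.9 ± 3.53 CPM in glomeruli against 26.2 ± 25.8 in venules (FDR 0.987). The endothelin gene Edn1 stood at 18.6 ± 13 CPM in glomeruli against 33.6 ± 40.1 in venules (FDR 0.899).

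Axon guidance genes, many of which also steer vessels, were higher in glomeruli in 7 of 30 tested members and in venules in none (background 2.57% and 3.11%). Sema3g, a secreted semaphorin of endothelium and podocytes, stood at 1483, 956, 993 and 844 CPM in the glomerular and 88.5, 36.1, 5.53 and 103 CPM in the venule libraries (log2 fold change 4.19 ± 0.583, FDR 0.000116). Unc5b, a netrin receptor, stood at 100.3, 85.8, 77.2 and 151 CPM in the glomerular and 0.392, 0.415, 0.443 and 0.607 CPM in the venule libraries (log2 fold change 7.76 ± 0.988, FDR 4.66e-05). The highest venule library held 0.607 CPM. Sema5a stood at 700.0 ± 304 CPM in glomeruli against 102 ± 60.8 in venules (log2 fold change 2.78, FDR 0.000352). The ephrin Efnb1 stood at 436 ± 152 CPM in glomeruli against 74.4 ± 5.41 in venules (log2 fold change 2.55, FDR 0.000157). Robo1, a slit receptor, had 886 counts over the 4 glomerular libraries and none over the venule libraries, which puts it at least 210.3-fold higher in glomeruli against a floor of 3 counts over the venule group (FDR 0.0149, and 0.0551 without glomerular 93). Sema3e was the seventh, with Nrp1 given above, and its call ended without any 1 library other than glomerular 98 and venule 100 (FDR up to 0.141).

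The largest fold changes among genes with at least 10 CPM in all 4 glomerular libraries belonged to genes that were nearly unread in venules. Cenpw, a centromere protein, and Sema5b, a semaphorin, had 658 and 608 glomerular counts and none in venules, hence at least 156-fold and 144-fold higher (FDR 0.0225 and 0.0249). Both calls ended in most fits with 1 library left out, Cenpw in 7 of 8 and Sema5b in 8 of 8 (FDR up to 0.0795 and 0.0732). Sema6c stood at 57.7, 42.2, 42.5 and 30 CPM in the glomerular libraries against 1 count in all venule libraries (FDR 0.00297), with a ratio of mean CPM of 1136 times (95% counting interval 202 to 44480). Gdpd5, a glycerophosphodiesterase, Kcna6, a potassium channel, and Dync1i1, a dynein chain, stood at 57.2 ± 22.7, 47.1 ± 9.1 and 26.8 ± 5.88 CPM in glomeruli (FDR 0.00135, 0.00306 and 0.0133) and at no more than 3 counts over the venule libraries. Fam222a and Lrrc49 had 2 venule counts each against 1892 and 1383 glomerular counts (FDR 0.00182 and 0.0067). Tox2, a nuclear HMG-box protein, was lost without glomerular 100 (FDR 0.0549), and Chml, a Rab escort protein, without glomerular 98, venule 93 or venule 96 (FDR up to 0.084). Myom2, an M-band protein of striated muscle, had the smallest p-value of all genes and was named after its values were seen. It stood at 746.9 ± 106 CPM in glomeruli against 3.36 ± 1.51 in venules (log2 fold change 7.78 ± 0.457, FDR 2.78e-09).

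**Figure D3:**
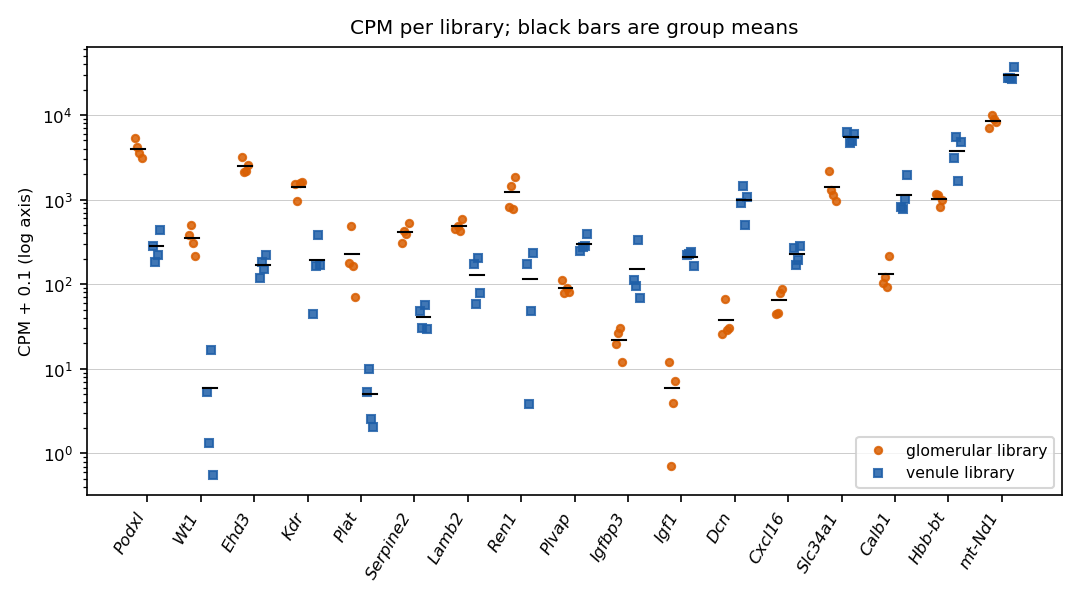
CPM plus 0.1 of 17 genes in each library on a log axis, with circles for glomerular and squares for venule libraries and bars at the group means. Glomerular libraries lie above for the first 8 genes from Podxl to Ren1 and venule libraries for the other 9 from Plvap to mt-Nd1, and no gene shown overlaps between the groups.

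On the venule side, genes of fibroblasts and the vessel wall were higher in 6 of 12 tested members of their list, with 1 member, Pi16, higher in glomeruli (log2 fold change 5.59, FDR 0.000707, 7.0 without venule 93). The list's median log2 fold change was -2.03, and the background was 3.11% higher in venules and 2.57% higher in glomeruli. Dcn, the collagen-binding proteoglycan decorin, stood at 25.9, 66.3, 28.9 and 30.5 CPM in the glomerular and 913, 1466, 498 and 1071 CPM in the venule libraries (log2 fold change -4.70 ± 0.422, FDR 4.22e-07). The lowest venule library held 498 CPM and the highest glomerular library 66.3 CPM. Col1a1 stood at 76.3, 126, 76.9 and 27.1 CPM in the glomerular and 448, 569.8, 199 and 528 CPM in the venule libraries (log2 fold change -2.51 ± 0.459, FDR 0.00163). Col3a1 stood at 28.2 ± 13 CPM in glomeruli against 245 ± 142 in venules (log2 fold change -3.12, FDR 0.00155). Col1a2 was called (log2 fold change -1.62, FDR 0.0296), but not without glomerular 93, glomerular 96, glomerular 98 or venule 96 (FDR up to 0.174). Mfap5 and Fbln1, proteins of elastic fibres, stood at 35.7 ± 32.8 and 35.9 ± 28 CPM in venules and below 1 CPM in every glomerular library (FDR 0.0211 and 0.0333). Their calls were lost in 5 and 6 of the 8 fits with 1 library left out (FDR up to 0.105 and 0.152, the first without venule 98, the second without venule 93, where the log2 fold changes were -6.53 and -5.34). With 1 library left out, 3 to 6 members of the list were called. Mgp, the calcification inhibitor of vessel walls, stood at 297, 195, 409.6 and 388 CPM in the glomerular and 1960, 2810, 1415 and 2593 CPM in the venule libraries (log2 fold change -2.77 ± 0.299, FDR 6.38e-06). Clec3b and Dpt, genes of adventitial fibroblasts, did not pass the filter. They had 1608, 888, 2 and 195 counts and 194, 568, 15 and 0 counts in the venule libraries, and at most 3 in any glomerular library. The venule samples thus differed among themselves in these genes.

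The insulin-like growth factor system was split between the compartments, with 2 of 16 tested genes higher on each side (background 2.57% in glomeruli and 3.11% in venules). Igf1, the growth factor, stood at 12, 0.612, 3.88 and 7.08 CPM in the glomerular and 218, 227, 237 and 163 CPM in the venule libraries (log2 fold change -5.16 ± 0.742, FDR 0.000161, -5.76 without glomerular 93). With 16 libraries in the fit no gene of the system was called, Igf1 included. With 20 libraries 1 gene was called on each side. The lowest venule library held 163 CPM of Igf1 and the highest glomerular library 12 CPM. Its mean of 182 CPM in venules, on the scale of all 20 libraries, lay above the 15.6 CPM of arterioles, 9.14 of peritubular capillaries and 26.7 of whole kidney. The study picked Igf1 as a venule marker against the other compartments in these same samples, so this order is not independent evidence. Igfbp3, the main carrier of IGF1 in blood, was called at 19.6, 26.4, 30 and 11.9 CPM in the glomerular and 113, 95.5, 334 and 69.3 CPM in the venule libraries (log2 fold change -2.80 ± 0.654, FDR 0.0119), but not without venule 98 (-2.13, FDR 0.153). Igfbp5 went the other way, as given above, and Stc2, an inhibitor of IGF release, was the second glomerular call but ended without any 1 of the 8 libraries (FDR up to 0.117). Igfbp4 was higher in venules by less than the fold threshold (677 ± 113 CPM in glomeruli against 1301 ± 317 in venules, log2 fold change -0.94, FDR 0.0325), and the receptor Igf1r stood at 284 ± 49.8 CPM in glomeruli against 266 ± 64 in venules (FDR 0.96).

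Endothelial genes higher in venules were few. Plvap stood at 113, 78.2, 90.8 and 80.9 CPM in the glomerular and 249, 272, 285 and 389 CPM in the venule libraries (log2 fold change -1.72 ± 0.381, FDR 0.00798), with every venule library above every glomerular library. Emcn, which encodes endomucin, ran the other way at 728, 729.5, 879.5 and 689.5 CPM in the glomerular and 231, 312, 216 and 173 CPM in the venule libraries (log2 fold change 1.70 ± 0.292, FDR 0.000994). Of 9 tested genes known from peritubular capillary endothelium, 3 were higher in venules (Plvap, Igfbp3 and the carbonic anhydrase gene Car4, 239 ± 126 CPM in venules against 42.8 ± 11.4 in glomeruli, log2 fold change -2.48, FDR 0.00391) and 2 in glomeruli (Npr3 and Cd300lg, log2 fold change 3.39, FDR 0.0043, 4.43 without venule 98). The fatty acid transporter Cd36 of the same list stood at 22.3, 7.1, 23.4 and 14.9 CPM in the glomerular and 45.6, 102, 84.1 and 152 CPM in the venule libraries without overlap, and missed the threshold (log2 fold change -2.50, FDR 0.0638). With 16 libraries in the fit Plvap, Emcn, Igfbp3, Car4 and Cd300lg were not called (FDR 0.447, 0.270, 0.211, 0.108 and 0.229). With 20 libraries Car4 was called and the other 4 were not (Cd300lg, FDR 0.104).

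Among 13 tested genes of leukocyte adhesion and recruitment, 1 was called, and their median log2 fold change was 0.05. The list took 0.172 to 0.206% of glomerular counts and 0.101 to 0.137% of venule counts, without overlap and with the glomerular libraries above. By gene, the glomerular libraries lay above without overlap for 3 (Icam2, Cd34 and F11r) and the venule libraries for 1 (Cxcl16), against 7.35% and 7.05% of all tested genes. Cxcl16, a membrane-bound chemokine, stood at 44.1, 46.1, 79.4 and 87.4 CPM in the glomerular and 267, 169.5, 193 and 279.5 CPM in the venule libraries (log2 fold change -1.82 ± 0.448, FDR 0.0167). The call ended without glomerular 93, glomerular 96 or venule 93 (FDR up to 0.0614), and with 16 or 20 libraries in the fit (FDR 0.381 and 0.172). Vcam1, which binds leukocytes on inflamed venules, stood at 15.3, 31.9, 51.4 and 31.5 CPM in the glomerular and 46.2, 137, 101 and 49.5 CPM in the venule libraries and was not called (FDR 0.425). The selectins and von Willebrand factor, which endothelium stores or makes on activation, did not pass the filter, and their venule counts varied widely. Sele had 235, 2, 0 and 128 counts in the venule libraries, Selp 2, 154, 2 and 155, and Vwf 9, 398, 198 and 16, against at most 2, 5 and 12 counts in any glomerular library. Chemokine genes below the filter went both ways. Cxcl1 had 70, 65, 5 and 2 counts in the glomerular and 4, 5, 0 and 2 in the venule libraries. Ccl2 had 0, 2, 1 and 0 counts in the glomerular and 1, 18, 28 and 21 in the venule libraries. Ccl7 had 0, 0, 0 and 1 counts in the glomerular and 17, 222, 8 and 0 in the venule libraries.

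Complement and antigen presentation gave 3 venule calls. Serping1, the C1 inhibitor, stood at 215 ± 67.4 CPM in glomeruli against 612 ± 178 in venules (log2 fold change -1.51, FDR 0.00852). Cd59a, which blocks the membrane attack complex on cells, was higher in glomeruli (499 ± 78.4 CPM in glomeruli against 58.1 ± 34.3 in venules, log2 fold change 3.10, FDR 0.000251). H2-Ab1, a class II chain of antigen-presenting cells, stood at 137, 125, 116 and 106 CPM in the glomerular and 345, 457, 258 and 512 CPM in the venule libraries (log2 fold change -1.70 ± 0.351, FDR 0.0047). The class I genes H2-K1 and H2-D1 were not called. Of 18 tested leukocyte genes H2-Ab1 was the 1 called, and the list's share of counts overlapped between the groups (0.0983 to 0.133% of glomerular counts and 0.105 to 0.179% of venule counts). In hemostasis, Proc, which encodes protein C, was higher in venules (283 ± 90.3 CPM in venules against 41.1 ± 52.9 in glomeruli, log2 fold change -2.79, FDR 0.0266, -4.23 without glomerular 100). This call ended without glomerular 93, glomerular 98, venule 93 or venule 100 (FDR up to 0.0861). Plat, Serpine2 and Anxa2 were higher in glomeruli.

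Tubule genes gave the most calls on the venule side of any list. Of 26 proximal tubule genes, all tested, 22 were higher in venules and none in glomeruli (background 3.11%), with a median log2 fold change of -2.02. The list took 1.68 to 2.53% of glomerular counts and 5 to 5.95% of venule counts. Kap, an androgen-regulated protein, stood at 5267, 3154, 4530 and 4941 CPM in the glomerular and 22460, 19690, 18090 and 18650 CPM in the venule libraries (log2 fold change -2.14 ± 0.185, FDR 2.55e-07). Slc34a1, the phosphate carrier of the brush border, stood at 2197, 1305, 1134 and 962 CPM in the glomerular and 6343, 4619, 4907 and 6019 CPM in the venule libraries (log2 fold change -1.97 ± 0.249, FDR 4.39e-05). The organic anion transporter Slc22a6 stood at 113, 78.1, 98.8 and 128 CPM in the glomerular and 608, 520.2, 536 and 519 CPM in the venule libraries (log2 fold change -2.38 ± 0.326, FDR 9.87e-05). All venule libraries lay above all glomerular libraries for these 3 genes. The urate carrier Slc22a12, the glutathione peroxidase Gpx3 and the oxygenase Miox, which breaks down inositol, had log2 fold changes of -2.27, -1.49 and -1.73 (FDR 7.84e-05, 9.77e-05 and 0.000397).

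Of 21 tested genes of more distal nephron segments, 9 were higher in venules (background 3.11%) and none in glomeruli, with a median of -2.42. Calb1, the calcium-binding protein of the distal tubule, stood at 103, 120.4, 91.6 and 216 CPM in the glomerular and 817, 772, 1007 and 1930 CPM in the venule libraries (log2 fold change -3.09 ± 0.372, FDR 2.68e-05). The proton pump subunit Atp6v1g3 of intercalated cells stood at 11.9, 20.3, 39.2 and 29.7 CPM in the glomerular and 370.4, 232, 515 and 443 CPM in the venule libraries (log2 fold change -3.95 ± 0.473, FDR 2.65e-05). Aqp2, the water channel of the collecting duct, differed by -4.13 on the log2 scale (FDR 0.000904, -4.92 without glomerular 100). Slc26a4, the exchanger pendrin of type B intercalated cells, was among the largest folds at 3.38, 0.122, 4.14 and 9.61 CPM in the glomerular and 45.6, 151, 199 and 209 CPM in the venule libraries (log2 fold change -5.13 ± 0.947, FDR 0.00182, -5.87 without glomerular 100). The part of tubule RNA in the other venule differences was not tested.

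Because tubule genes moved together, the 250 bases before the RefSeq transcript start are shown for Slc34a1, Slc22a6 and Miox, and for Ehd3 as the leading glomerular endothelial gene. The sequences are RefSeq's, of build GRCm38.p6, and run 5′ to 3′ on the gene's strand. For Slc34a1, Miox and Ehd3 that start lies inside the gene span of the annotation, which begins further upstream. Slc34a1 is at chr13:55399398-55399647, plus strand, Slc22a6 at chr19:8617746-8617995, plus strand, Miox at chr15:89334223-89334472, plus strand and Ehd3 at chr17:73804591-73804840, plus strand. Capitals mark matches, on either strand, to any of 4 short motifs: GTTAAT (an arm of an HNF1 site), CAAAGT (an arm of an HNF4A site), TAATTA (a homeodomain core) and TGCTGA (an arm of a MAF site).
Slc34a1: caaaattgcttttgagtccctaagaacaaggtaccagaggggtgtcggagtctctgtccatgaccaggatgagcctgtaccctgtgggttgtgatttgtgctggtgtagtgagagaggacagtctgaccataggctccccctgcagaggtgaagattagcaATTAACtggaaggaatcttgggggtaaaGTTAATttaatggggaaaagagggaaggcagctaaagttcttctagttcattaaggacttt
Slc22a6: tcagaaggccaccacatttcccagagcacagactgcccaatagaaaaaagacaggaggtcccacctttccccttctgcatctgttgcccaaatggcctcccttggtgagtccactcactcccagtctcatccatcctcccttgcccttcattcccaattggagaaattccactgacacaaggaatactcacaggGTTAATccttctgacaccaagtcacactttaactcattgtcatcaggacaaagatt
Miox: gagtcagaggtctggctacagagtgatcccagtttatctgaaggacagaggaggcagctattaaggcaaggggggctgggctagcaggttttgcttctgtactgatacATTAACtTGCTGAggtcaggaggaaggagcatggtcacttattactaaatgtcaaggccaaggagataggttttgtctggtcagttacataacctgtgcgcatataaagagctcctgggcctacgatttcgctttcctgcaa
Ehd3: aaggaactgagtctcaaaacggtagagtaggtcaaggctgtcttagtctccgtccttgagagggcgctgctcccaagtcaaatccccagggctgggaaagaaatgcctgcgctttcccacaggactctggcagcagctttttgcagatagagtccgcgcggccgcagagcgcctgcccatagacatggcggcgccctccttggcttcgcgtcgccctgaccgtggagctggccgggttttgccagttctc
Slc34a1 held 2 HNF1 arms, Slc22a6 held 1, Miox held 1 beside a MAF arm, and the Ehd3 window held none of these letters. The HNF1 arm was in 28 of 302 promoters of genes higher in venules (9.27%) and in 9 of 278 of genes higher in glomeruli (3.24%), against 4.2% of 10747 promoters of tested genes and 6.43% of all 32851 promoters. CAAAGT was in 14.6% and 8.63% of the 2 groups (10.4% of promoters of tested genes, 12.6% of all), TAATTA in 6.95% and 1.44% (2.54% and 4.84%), and TGCTGA in 12.6% and 11.2% (12.3% and 16.1%). These shares describe letters in a window, and no test was made of them. GTTAAT and TAATTA can overlap by up to 4 bases.

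RNA of mitochondria and red blood cells also differed. Mitochondrially encoded genes took 4.85 to 6.36% of glomerular counts and 12.9 to 15.0% of venule counts, and all 7 tested protein genes among 13 were higher in venules. mt-Nd1, a subunit of complex I, stood at 7087, 9901, 8960 and 8311 CPM in the glomerular and 27670, 27360, 26980 and 36520 CPM in the venule libraries (log2 fold change -1.79 ± 0.166, FDR 6.92e-07). The ribosomal RNA gene mt-Rnr2 stood at 10130 ± 1857 CPM in glomeruli against 30970 ± 3630 in venules (log2 fold change -1.61, FDR 3.68e-06). Genes of fatty acid oxidation, encoded in the nucleus, were higher in venules in 3 of 19 (background 3.11%), Acadm and Hadh among them, and in glomeruli in none. The median log2 fold change of the list was -1.02. The Acadm call ended without glomerular 98 or venule 96 (FDR up to 0.066) and that of Hadh without any 1 library other than venule 93, venule 98 and venule 100 (FDR up to 0.0876). Hemoglobin genes took 1.37 to 1.73% of glomerular and 1.96 to 4.83% of venule counts, and 4 of 9 tested erythrocyte and platelet genes, all of them hemoglobin, were higher in venules. Hbb-bt stood at 1162, 1118, 809.8 and 990.1 CPM in the glomerular and 3086, 5483, 1657 and 4761 CPM in the venule libraries (log2 fold change -1.88 ± 0.296, FDR 0.000428), with the venule libraries spread over more than 3-fold. Leaving hemoglobin and mitochondrial genes out of the totals gave 275 and 333 calls, and leaving out the tubule genes as well gave 261 and 353.

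The largest fold changes among genes with at least 10 CPM in all 4 venule libraries were mixed in kind. Fam151b had 705 counts over the venule libraries, at 29.1, 23.4, 31.4 and 25.9 CPM, and none over the glomerular libraries, which puts it at least 329.9-fold higher in venules (FDR 0.00876). Myh14, a nonmuscle myosin heavy chain, stood at 40.5 ± 31.4 CPM against 0.248 ± 0.107 (log2 fold change -7.26, FDR 0.0107) and was lost without venule 96 (-6.67, FDR 0.0679). Ezh2, the methyltransferase of histone H3, stood at 0.466, 0.122, 0 and 0 CPM in the glomerular and 47.8, 34.7, 27.2 and 30.8 CPM in the venule libraries (FDR 0.0177). Its call ended without glomerular 96, glomerular 98 or venule 93 (FDR up to 0.0646), and without glomerular 93 its log2 fold change was -9.32. Nat8f6, an acetyltransferase family member, was called at log2 fold change -5.57, FDR 0.00987 and lost without venule 100 (FDR 0.0564). The log2 fold change was -6.23 without glomerular 98. Slc16a5, a monocarboxylate carrier, was called at log2 fold change -5.19, FDR 0.0454 and lost without any 1 library other than venule 98 and venule 100 (FDR up to 0.156). Its log2 fold change was -6.14 without glomerular 98. Pbld2 and Lyplal1 rested on few libraries as well (FDR up to 0.136 and 0.329), with log2 fold changes of -5.01 without venule 100 and -3.85 without venule 98, against -8.41 and -7.79 without glomerular 96. Mir6236 had 3 counts over the glomerular libraries and was lost without glomerular 93 or glomerular 98 (FDR up to 0.0589).

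Because the share of endothelial RNA differed between the compartments, the comparison was repeated per endothelial RNA, with the library total replaced by the summed counts of the 21 listed genes of endothelium in general, and levels given per 1000 of those counts. On that scale 128 genes were higher in glomeruli (1.20% of tested genes) and 1795 in venules (16.8%), and the median log2 fold change was -1.32, so values are to be read against that shift. Pecam1, itself in the divisor, stood at 167, 106, 150.1 and 125 in the glomerular and 259.6, 169.9, 57.2 and 95.3 in the venule libraries (log2 fold change -0.09, FDR 0.916). Ehd3 stood at 1078, 794, 768 and 847 in the glomerular and 104, 163, 108 and 223 in the venule libraries (log2 fold change 2.54, FDR 1.84e-05) and was again higher in glomeruli without overlap. Kdr (log2 fold change 1.64, FDR 0.0118), Sema3g (log2 fold change 2.77, FDR 0.00294) and Unc5b (log2 fold change 6.43, FDR 0.00162) were also higher in glomeruli, as was Plat (log2 fold change 4.24, FDR 0.00151), though not without glomerular 96 (3.44, FDR 0.054).

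Plvap stood at 38, 29.4, 32 and 27 in the glomerular and 216, 243, 203 and 396 in the venule libraries per 1000 endothelial counts (log2 fold change -3.07, FDR 1.96e-05), again higher in venules. Mgp (log2 fold change -4.14, FDR 4.22e-07), Car4 (log2 fold change -3.76, FDR 1.72e-05), Igfbp3 (log2 fold change -3.98, FDR 0.000123) and Cxcl16 (log2 fold change -3.17, FDR 5.7e-05) were higher in venules on both scales, and none of these 4 was lost with 1 library left out per endothelial RNA. Cd36 (log2 fold change -3.88, FDR 0.000746), the chemokine gene Cxcl12 (log2 fold change -1.77, FDR 0.00937) and Lpl, the lipoprotein lipase of capillary walls (log2 fold change -1.37, FDR 0.0035), passed both thresholds on this scale, as did Vcam1 (log2 fold change -2.64, FDR 0.0144), though not without glomerular 93 or venule 96. The shift of -1.32 lowers all genes nearly alike and moves a gene higher in venules by CPM further that way. The venule calls from Plvap to Vcam1, with or without 1 library left out, thus show no difference beyond that in CPM. By CPM, the calls of Igfbp3 and Cxcl16 were lost in some of those fits, as given above. Nr2f2 was called on neither scale (log2 fold change -1.02, FDR 0.0818). Emcn, Mapt, Npr1, Ren1, Enpep and Anxa2, which were higher in glomeruli by CPM, were not called per endothelial RNA. The same held for Egfl7, Cldn5 and Ets1, which are themselves in the divisor.

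**Figure D4:**
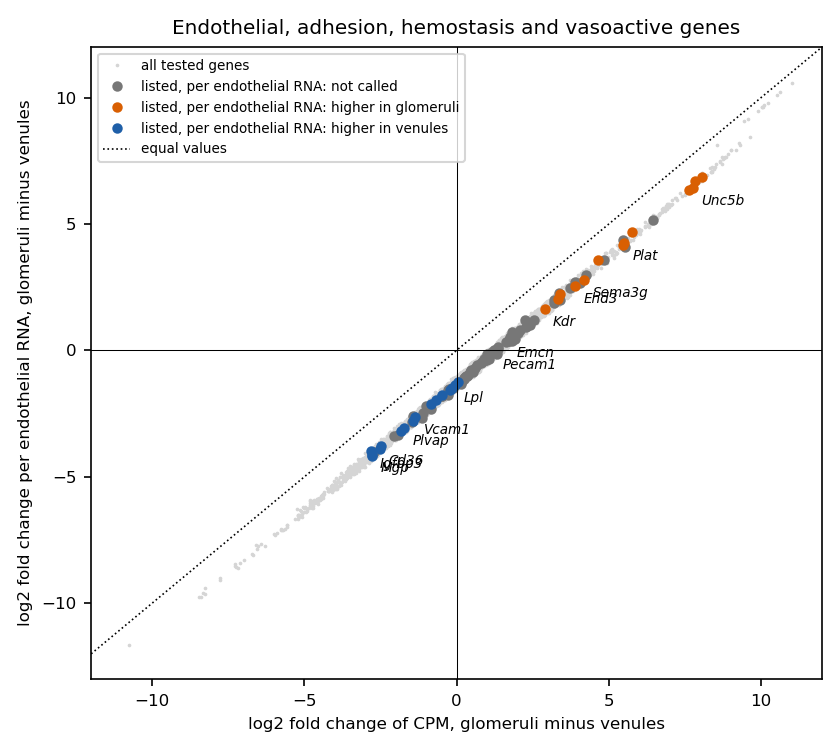
Log2 fold change per endothelial RNA (vertical axis) against that of CPM (horizontal axis), both glomeruli minus venules, for all tested genes (light grey) and the listed endothelial, adhesion, hemostasis and vasoactive genes, colored by their call per endothelial RNA. All genes lie below the dotted line of equal values, and Pecam1 lies near 0 on the vertical axis.

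The means of the other compartments and of whole kidney, on a scale set over all 20 libraries, place these genes. Of the 275 genes higher in glomeruli, 209 (76.0%) had their highest mean of the 5 groups in glomeruli, 63 in arterioles and 3 in peritubular capillaries, against 36.8% highest in glomeruli among all tested genes with a higher glomerular mean. Of the 332 genes higher in venules, 94 (28.3%) had their highest mean in venules, 201 in peritubular capillaries, 26 in arterioles and 11 in whole kidney, against 29.5% highest in venules among all tested genes with a higher venule mean. Igf1 was among the 94, and so was Klk1, a kallikrein of the connecting tubule that was named after its values were seen (7468 CPM in venules, 4937 in peritubular capillaries, 3358 in arterioles, 1878 in whole kidney and 925 in glomeruli).

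A further list held 23 genes also measured by qRT-PCR. Of these, 20 were tested, 7 were higher in glomeruli and 5 in venules. Some were picked from these same samples, so their counts are not independent evidence of direction. Rab3b, a vesicle GTPase, stood at 78.4, 112, 96.6 and 66.6 CPM in the glomerular and 0.131, 0.138, 0.221 and 0.455 CPM in the venule libraries (log2 fold change 8.46 ± 1.15, FDR 9.77e-05). Gabrb1, a GABA receptor subunit, stood at 23.3, 17.2, 35.1 and 68.7 CPM in the glomerular libraries, with a ratio of mean CPM of 387 times (95% counting interval 128 to 3827), but was not called without glomerular 100 (FDR 0.0663). The same held for Adgrl3, a latrophilin, at 14.5, 21.5, 12.9 and 108 CPM and a ratio of 517 times (95% counting interval 129 to 3847), without glomerular 100 (FDR 0.121). Slc22a2, a cation transporter, was higher in venules (41.4, 15.3, 95.5 and 78.6 CPM in the glomerular and 247, 220.4, 232 and 308 CPM in the venule libraries, log2 fold change -2.12 ± 0.515, FDR 0.0153), but not without glomerular 93 (FDR 0.0537).

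Several pathways gave few calls or none. No gene of the Notch pathway (12 tested) and none of the immediate early and heat shock genes (20 tested) was called, with median log2 fold changes of 0.64 and 0.21. Of 21 genes of TGF-β and BMP signalling, Id2, an inhibitor of helix-loop-helix factors, was called higher in venules (log2 fold change -1.06, FDR 0.029), but not without any 1 library other than glomerular 100, venule 93 and venule 96 (FDR up to 0.111). Of 17 smooth muscle genes, Mylk, the myosin light chain kinase, was higher in glomeruli (1365 ± 131 CPM in glomeruli against 537 ± 123 in venules, log2 fold change 1.35, FDR 0.00235), and Des, the intermediate filament desmin, was called (log2 fold change 1.88, FDR 0.0319) but not without any 1 library other than glomerular 100 and venule 98 (FDR up to 0.123). Of 15 tested arterial endothelial genes, Sema3g and Unc5b were higher in glomeruli and Mgp in venules, all given above. Of 3 tested lymphatic genes, Pdpn, podoplanin, which podocytes also make, was higher in glomeruli (216 ± 69 CPM in glomeruli against 18.6 ± 9.59 in venules, log2 fold change 3.54, FDR 0.000402). Of 19 genes of the interstitial matrix, Sparc is given above and Col14a1 was higher in venules (log2 fold change -2.87, FDR 0.0465, -3.66 without glomerular 96), but not without any 1 library other than glomerular 96 and venule 100 (FDR up to 0.126).

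**Figure D5:**
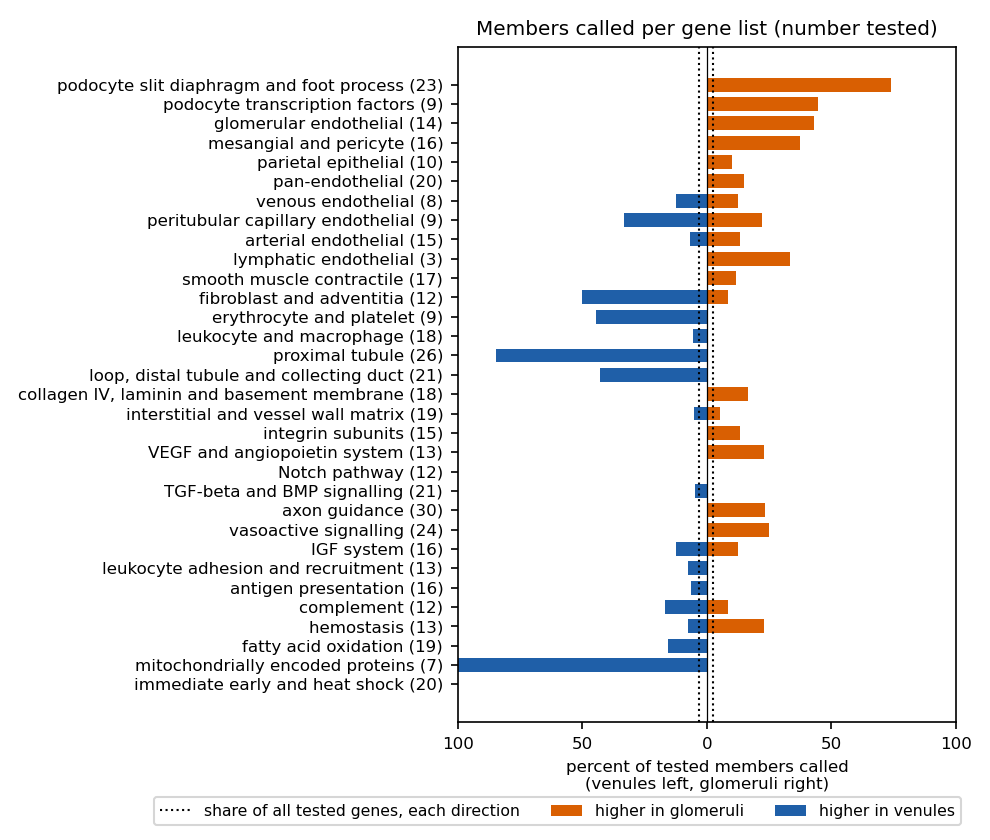
Percent of tested members called higher in venules (bars to the left) and in glomeruli (bars to the right) for 32 gene lists, with the number tested in parentheses and dotted lines at the shares of all tested genes (3.11% and 2.57%). Podocyte lists reach farthest to the right, and mitochondrially encoded proteins and proximal tubule genes farthest to the left.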

How the data were processed

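The deposited table holds raw read counts per gene for 20 samples, of which the 8 of glomeruli and post-capillary venules were compared. The submitters' processing notes name STAR 2.7, featureCounts and HTSeq 0.13 among the tools, and both GRCm38.p6 and GRCm39 as builds. Whether counting used the strand was not given in the sources used here. Counts were fitted with edgeR 4.0.16 (R 4.3.3), with TMM scaling, the filterByExpr filter and the quasi-likelihood test in its version 3 form, over 10685 genes. Calls needed a difference over 1 on the log2 scale at FDR below 0.05. The 4639090 to 9792824 counts per library limit precision for genes of low count. Intervals and floors (3 counts) cover counting error only. A second fit replaced library totals by the summed counts of 21 endothelial genes. The members and gene lists were chosen with earlier results of these data known. Named were the 12 called genes of largest fold with at least 10 CPM in all 4 libraries of the higher group and the 6 most abundant called genes per direction, up to 4 called members per list by p and up to 2 against the list's median, the qRT-PCR genes, called vascular genes per endothelial RNA, and members of families. Further list members, called or not, were named after their values were seen. Predicted genes were counted and passed over, and some list members are not reported here. Alternatives covered DESeq2 1.42.0 and its filter, RLE scaling, no filter, fits of 16 and 20 libraries, a replicate block, totals without hemoglobin, mitochondrial and tubule genes, the version 4 form of the test (the last 2 chosen after seeing the data) and each library left out.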

Additional observations from a re-analysis of the deposited data

Results flagged for a closer look

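In 162 groups of 4 libraries examined, the highest or lowest library stood apart from the other 3 in 17 (10.5%). Chance gives about 1 in 20 for normally distributed values. CPM was not transformed, and a group with reads in 1 library alone always stands apart, so 10.5% cannot be set against that rate. Nphs1 stood at 846 CPM in glomerular 100 (other glomerular libraries 126 to 177) and at 8.88 CPM in venule 93 (others 0.221 to 1.11). Glomerular 100 also stood apart for Pard3b at 821 CPM (others 196 to 259.5), Adgrl3 at 108 CPM (others 12.9 to 21.5) and, on the low side, the share of counts on antigen presentation genes at 0.196% (others 0.278 to 0.294%). Glomerular 96 held 66.3 CPM of Dcn (others 25.9 to 30.5) and 970.3 CPM of Kdr (others 1510 to 1618). Rhpn1 was lowest in glomerular 98 at 203.5 CPM (others 427 to 453), whose total of 9792824 counts was above the 7299352 to 7533913 of the others.

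Venule 98 had the smallest total, 4639090 counts (other venule libraries 8433741 to 9038724), and stood above the other venule libraries for Tbx3 at 26.1 CPM (others 0.276 to 1.18), Npr3 at 25.9 CPM (others 0.276 to 0.759), Igfbp3 at 334 CPM (others 69.3 to 113) and the share of hemostasis genes at 0.127% (others 0.0856 to 0.0904%). Venule 100 stood above the others for mt-Nd1 at 36520 CPM (others 26980 to 27670), and was the 1 venule library with reads of Sema6c (0.152 CPM) and Adgrl3 (0.303 CPM).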

How the results depend on the processing

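The counts of 275 genes higher in glomeruli and 332 higher in venules became 856 and 843 with DESeq2, 500 and 631 with the version 4 form of edgeR's test, 60 and 89 with 16 libraries in the fit, 125 and 173 with 20 libraries, 351 and 423 with no filter on low counts, 268 and 411 with DESeq2's independent filter and 265 and 343 with RLE scaling. With 1 library left out they ran from 177 to 270 and from 239 to 303, and per endothelial RNA (128 and 1795) from 74 to 111 and from 1276 to 1887, with 177 and 74 without glomerular 98, 81 without glomerular 93 or venule 93 and 82 without venule 96. Per endothelial RNA, scaling to Pecam1 and Cdh5 gave 99 and 1871, and no filter gave 94 and 2131. The column names give the groups shared numbers. Samples of one number did not deviate together (correlations -0.0174 to 0.0157), and the main fit did not take the numbers as pairs. Such correlations cannot show that samples of one number came from different mice. A replicate block gave 310 and 359, and 105 and 1438 per endothelial RNA. Genes that were not called changed sign. Edn1 was 0.86 with the replicate block, and with 1 library left out its log2 fold change ran from -1.32 to 0.0416, that of Nos3 from -0.31 to 0.97, Igf1r from -0.0849 to 0.19 and Nr2f2 from -0.00428 to 0.49. Pecam1 per endothelial RNA was 0.10 with the replicate block and ran from -0.35 to 0.35. No called gene given here changed sign in these fits. The cause of these changes was not tested. Depth limits genes of low count, most of all in venule 98.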
